A study of Lachancea kluyveri with 31 samples.

Results

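Expression in the yeast *Lachancea kluyveri* was compared between the *aft1*Δ mutant and wild-type (WT) cells under the low-iron condition, over every measured gene outside the 29 iron-uptake-related genes listed by the study. These were 5287 of the 5316 genes with a probe, of which 446 lay on chromosome A and 4841 on chromosomes B to H, the letter after SAKL0 in a systematic name giving the chromosome. Tests were possible for 442 and 4829 of them, and 16 genes had fewer than 2 usable values in a group. The *aft1*Δ strain carried *KanMX6* in place of *AFT1* in the *MATa ura3* WT strain JYL1897, so that both groups shared the mating type and the *ura3* marker, and all *aft1*Δ cultures came from 1 deletion strain. The low-iron medium was YPD with 200 units of the ferrous chelator BPS and the high-iron medium YPD with 400 units of ferrous iron, where the sample labels give the unit as mM and the methods of the study as µM. Cells were diluted to an optical density of 0.5 per ml and grown for 5.5 h at 30°C after an overnight YPD culture at 28°C.

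Each group had 4 arrays with 1 array per biological replicate: *aft1*Δ at low iron and WT at low iron, which form the comparison, and beside them *aft1*Δ and WT at high iron. The *sef1*Δ*aft1*Δ and *sef1*Δ strains, in which the gene of another transcription factor, Sef1, is deleted, also had 4 low-iron arrays each. The *sef1*Δ*aft1*Δ strain was made from the *sef1*Δ strain with *HphMX4* at *AFT1*. Every strain lay on 1 slide of its own, and the WT slide had a scan session separate from that of the mutants' slides, so that strain, slide, and, between mutant and WT, scan session cannot be told apart in a comparison at 1 iron level. An offset between slides cancels in the difference of the low-iron and high-iron contrasts. Before scaling, the 75th percentile of the probe intensities was 10420 to 18948 on the *aft1*Δ low-iron arrays, against 19252 to 21986 on the WT low-iron arrays. Across the 31 arrays of the series 97.8% to 99.7% of probes were well above background and none was saturated. Values below are log2 intensities relative to the 75th percentile of their array and can be compared between arrays for 1 gene, not between genes. On these RNA arrays, fewer cells with a transcript and less transcript per cell cannot be told apart.

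In *Saccharomyces cerevisiae*, Aft1 is the transcription factor that senses iron shortage through iron-sulfur cluster synthesis and switches on the iron regulon, which holds genes for siderophore uptake, reductive uptake, and iron release from the vacuole. Yeast cells short of iron also save it, by lowering pathways rich in heme and iron-sulfur enzymes, such as respiration, the tricarboxylic acid (TCA) cycle, and the synthesis of glutamate, branched-chain amino acids, biotin, and lipoate. The genes described here lie outside the uptake genes, so that they cover those iron-using pathways as well as growth, storage, and stress genes.

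With the probe used, the deleted gene was at background in the mutant. *AFT1* (SAKL0A04532g, 1 of the 29 listed genes) read −9.07, −7.17, −9.17, and −8.52 on the 4 *aft1*Δ arrays, none of them well above background, against −1.18, −1.02, −0.89, and −0.93 on the WT arrays. This is at least 74.5-fold lower in *aft1*Δ, where the bound sets the dim side to the lowest signal that was still well above background on each array or to its own signal if higher. The bound holds for this probe only. With the other probe of *AFT1* the log2 fold change was −3.93, also called lower. *SEF1* (SAKL0F12342g) differed by a log2 of 0.01 (SE 0.16, limma adjusted p = 0.954).

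A gene was called if its p, adjusted by Benjamini-Hochberg over all 5300 tested genes, was at most 0.05 and its fold change at least 1.5. Of all tested genes 22.1% were called higher and 18.8% lower in *aft1*Δ at low iron.

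Chromosome A stood apart from the rest of the genome. Of its 442 tested genes, 307 (69.5%) rose in *aft1*Δ and 11 (2.49%) fell, whereas on chromosomes B to H 863 of 4829 genes (17.9%) rose and 965 (20.0%) fell. The median log2 fold change was 0.87 on chromosome A (quartiles 0.45 and 1.36), with 89.6% of its genes above 0, against −0.06 on chromosomes B to H (quartiles −0.47 and 0.39). Among the other 7 chromosomes the medians lay between −0.25 on chromosome C, where 73 of 581 genes rose and 161 fell, and 0.00 on chromosome B.

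The shift was present on every *aft1*Δ array. The median level of chromosome A genes minus that of genes on chromosomes B to H was 0.91, 0.95, 0.96, and 0.92 on the 4 *aft1*Δ low-iron arrays, against −0.06, −0.11, −0.05, and −0.05 on the WT low-iron arrays. The groups did not overlap, and the means of 0.93 ± 0.03 and −0.07 ± 0.03 (SD, n = 4 each) differed by 1.00, a ratio of 2.00. At high iron the same quantity was 0.82 to 0.90 in *aft1*Δ and −0.04 to 0.01 in WT. It was not seen in the other strain without *AFT1*, with −0.09 to −0.04 in *sef1*Δ*aft1*Δ and −0.06 to 0.01 in *sef1*Δ at low iron. The number of copies of the chromosome in the strains was not tested. With chromosome A and the other chromosomes each set to its own median on every array, 75 chromosome A genes were called higher and 101 lower.

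**Figure D1:**
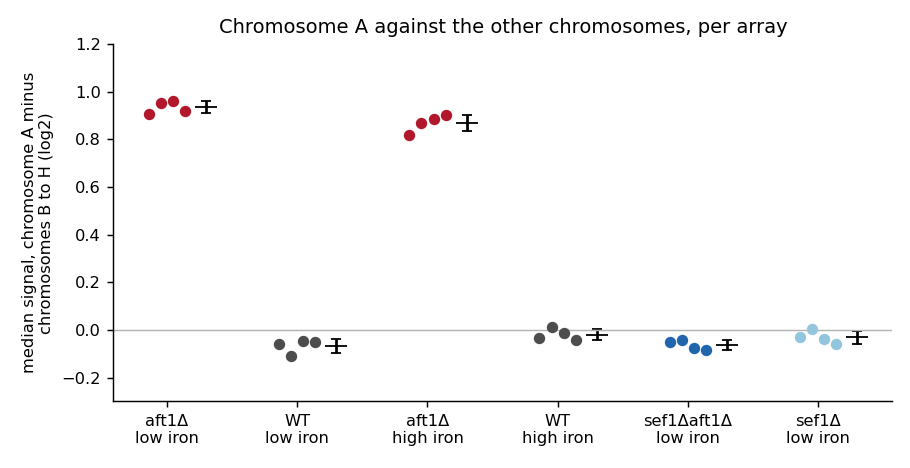
Median log2 level of chromosome A genes minus that of genes on chromosomes B to H, 1 point per array, with the group mean and SD. The *aft1*Δ arrays sit between 0.82 and 0.96 at both iron levels, and all arrays of *sef1*Δ*aft1*Δ, *sef1*Δ, and WT lie near 0.

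The rise ran along the whole chromosome and not only beside the deleted gene. In quintiles of 88 or 89 genes from the low to the high end of the systematic numbers, the median log2 fold change was 1.15, 0.80, 0.85, 0.83, and 0.79, with 70, 55, 61, 62, and 59 genes called higher. In the *sef1*Δ*aft1*Δ to *sef1*Δ comparison the same quintiles had medians between 0.02 and 0.14. Of the 20 genes nearest to *AFT1*, 10 on each side, 14 rose and 1 fell, with a median of 0.85. The gene that fell was *YIG1* (SAKL0A04554g), the next gene after *AFT1*. Its levels were −1.60, −1.63, −1.07, and −1.19 in *aft1*Δ and 0.10, −0.46, −0.25, and 0.06 in WT, a log2 fold change of −1.23 (SE 0.15, limma adjusted p = 3.19e-08) without overlap. At high iron it differed by 0.16 (limma adjusted p = 0.357), and between *sef1*Δ*aft1*Δ and *sef1*Δ by 0.02 (limma adjusted p = 0.932), with both of these strains below every WT low-iron array, at −2.15 ± 0.21 and −2.17 ± 0.16 (SD, n = 4 each).

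**Figure D2:**
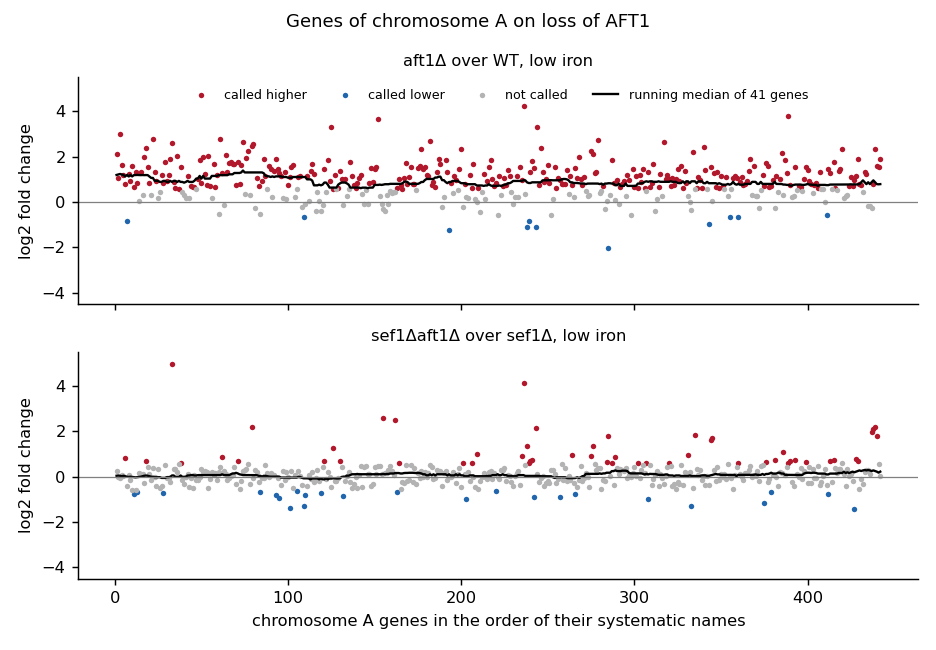
Log2 fold change of each chromosome A gene by its order on the chromosome, for *aft1*Δ against WT (first panel) and *sef1*Δ*aft1*Δ against *sef1*Δ (second panel) at low iron, with a running median of 41 genes. The running median stays above 0 along the chromosome in the first panel and near 0 in the second.

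Several chromosome A genes rose by far more than the chromosome's median. *SPO23* (SAKL0A05632g), whose *S. cerevisiae* ortholog is tied to sporulation, read 0.87, 0.54, 0.85, and 0.85 in *aft1*Δ and −3.27, −3.63, −3.70, and −3.14 in WT. All *aft1*Δ arrays were higher, by a log2 of 4.21 (SE 0.31, limma adjusted p = 9.29e-13). *MAE1* (SAKL0A09372g), the mitochondrial malic enzyme, read 1.25, 1.40, 1.74, and 1.71 in *aft1*Δ and −2.27, −1.77, −2.55, and −2.39 in WT, again without overlap and 13.7-fold higher (limma adjusted p = 7.17e-17). For both, the difference from WT was larger under low iron, with interactions of 1.51 and 1.56.

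The other named rises on chromosome A were not called for the interaction. Those of *ENP1* (SAKL0A05808g) and *ESF2* (SAKL0A00198g), 2 factors of small-subunit rRNA processing, were 3.31 and 2.99 at low iron and 2.94 and 2.87 at high iron on the log2 scale. SAKL0A03630g and SAKL0A03036g, which carry no ortholog name here, rose by 3.64 and 3.29 at low iron and 3.33 and 2.77 at high iron. *ESF2*, SAKL0A03630g, and SAKL0A03036g were also called higher in *sef1*Δ, which has *AFT1*, than in WT at low iron, by 1.31, 0.94, and 2.32. In *aft1*Δ they exceeded *sef1*Δ by 1.68, 2.71, and 0.97. For *ENP1* the levels were −0.51, −0.25, −0.38, and −0.48 in *aft1*Δ and −4.02, −3.45, and −3.67 in WT, whose replicate 3 spot was marked as non-uniform and left out. These levels did not overlap. Beside *YIG1*, the named falls on chromosome A were those of SAKL0A06842g at −2.03, SAKL0A05698g at −0.83, and *ICY1*. *ICY1* (SAKL0A02684g) fell by 0.65 (limma adjusted p = 0.00532), a call lost without WT replicate 4 (−0.57) or *aft1*Δ replicate 1 (−0.52), under quantile normalization (−0.52), and with the percentile taken over chromosomes B to H (−0.53).

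On chromosomes B to H the balance of rises and falls moved with the scaling and the probe, while a core of calls did not. Of the calls 47.2% were rises. The share was 32.5% under quantile normalization (604 rises and 1257 falls), 28.5% with each array's median as the reference (579 and 1456), 58.7% with the percentile of chromosomes B to H (1037 and 729), 71.3% with the other probe of each gene (1399 and 563), and 60.1% with the mean of the probes (1041 and 692). The median over all tested genes was −0.02, and −0.16, −0.22, 0.10, 0.24, and 0.11 in those settings. Under 8 settings of scaling, background, and probe, 468 of the 863 rises and 396 of the 965 falls were called the same way throughout, and on chromosome A 233 of 307 and 3 of 11. The median fold change differed with signal. It was 0.09 in the dimmest tercile of genes by mean signal (415 rises and 236 falls), −0.04 in the middle tercile (284 and 285), and −0.23 in the brightest tercile (164 and 444). On chromosome A the same terciles had medians of 1.10, 1.01, and 0.64. The part of signal strength in these differences was not tested.

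Among the 12 largest rises on chromosomes B to H, 2 were ribosome assembly factors and 3 encoded hydrolases or a deaminase. *RLP24* (SAKL0G12034g), a factor of large-subunit assembly, read −0.26, 0.23, −0.01, and 0.24 in *aft1*Δ and −3.99, −3.24, −3.32, and −3.90 in WT. The groups were far apart, by 12.7-fold (log2 3.66, SE 0.15, limma adjusted p = 2.66e-18). *MAK16* (SAKL0B10164g), of the same pathway, was higher by 3.24. *DAP2* (SAKL0G11154g), a vacuolar dipeptidyl aminopeptidase, was at −1.80, −1.75, −1.99, and −1.55 in *aft1*Δ and −5.57, −5.13, −5.17, and −5.44 in WT, 11.8-fold higher (limma adjusted p = 1.53e-17). The adenine deaminase gene *AAH1* (SAKL0E12122g) was 9.80-fold higher, at 1.14, 1.79, 1.34, and 1.51 in *aft1*Δ against −1.93, −1.94, −1.76, and −1.76 in WT. *ATC1* (SAKL0H13904g) rose by 3.74, and the isomaltase gene *IMA5* (SAKL0C00176g), whose probe cross-hybridizes, by 3.80.

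The remaining 6 of the largest rises carried no ortholog name. SAKL0B00154g read −1.55, −2.12, −1.26, and −1.48 in *aft1*Δ and −7.46, −6.32, −7.67, and −5.62 in WT. The *aft1*Δ arrays were all higher (log2 5.17, limma adjusted p = 6.34e-12), and only 1 of the 4 WT arrays was well above background. SAKL0B00286g was well above background on no WT array and on all *aft1*Δ arrays, at least 3.89-fold higher. SAKL0B00946g, SAKL0H00176g, and SAKL0F02838g rose by 3.26, 3.09, and 3.07 on the log2 scale. SAKL0B12606g, called at 3.31, was also well above background on only 1 of the 4 WT arrays, so that the size of its change and that of SAKL0B00154g rest mostly on WT signals near background.

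**Figure D3:**
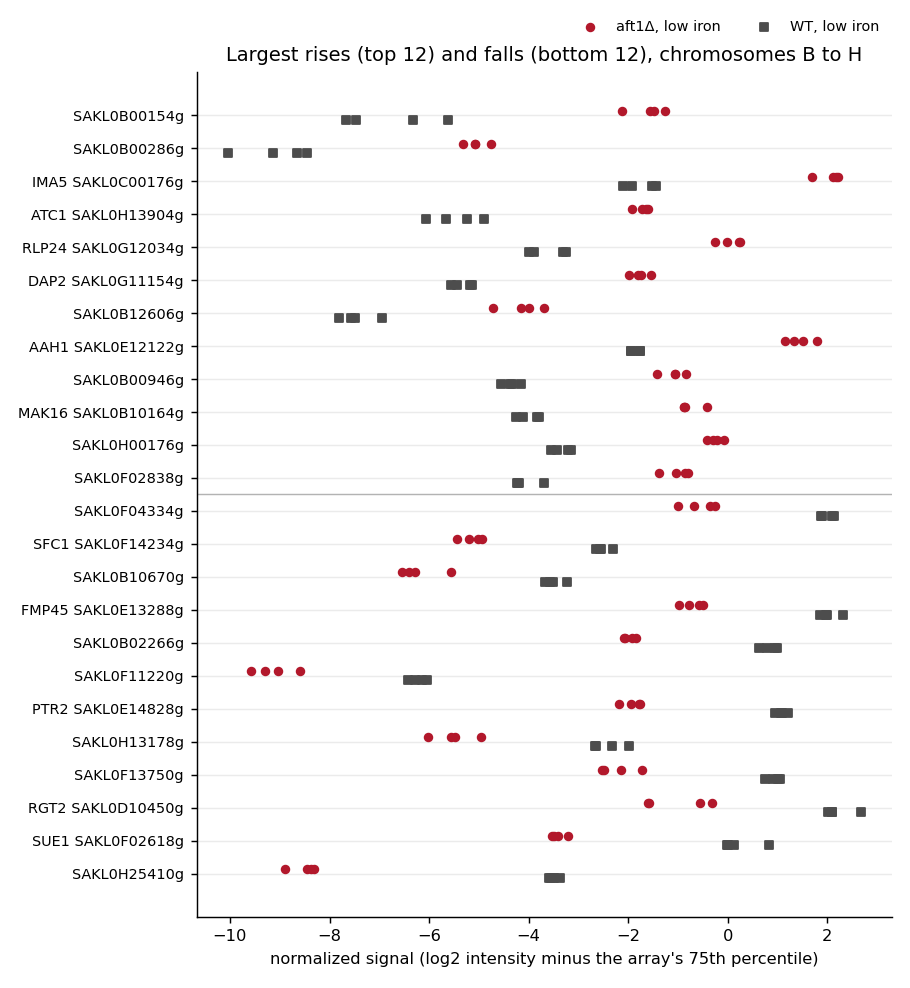
Log2 level of the 12 largest rises and 12 largest falls on chromosomes B to H, by array, in *aft1*Δ and WT at low iron. The 4 *aft1*Δ arrays do not overlap the 4 WT arrays for any of these genes, which was a condition of the choice.

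Among the 12 largest falls on chromosomes B to H 5 had an ortholog name. SAKL0H25410g, without an ortholog name, read −8.37, −8.90, −8.31, and −8.46 in *aft1*Δ, on no array well above background, and −3.59, −3.55, −3.37, and −3.50 in WT, so that it was at least 13.2-fold lower. *SUE1* (SAKL0F02618g), whose *S. cerevisiae* product is needed to degrade unstable cytochrome c, was at −3.53, −3.20, −3.49, and −3.40 in *aft1*Δ and 0.84, 0.12, 0.00, and −0.01 in WT. It was 12.5-fold lower without overlap (limma adjusted p = 4.75e-16). *RGT2* (SAKL0D10450g), a plasma membrane glucose sensor, was lower by 9.41-fold, with −1.58, −1.60, −0.56, and −0.32 in *aft1*Δ and 2.67, 2.10, 2.01, and 2.09 in WT. The 2 lower *aft1*Δ arrays stood about 1 log2 unit below the others, and all lay below WT.

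The peptide transporter gene *PTR2* (SAKL0E14828g) was 8.05-fold lower, with −1.77, −1.79, −2.19, and −1.94 in *aft1*Δ against 0.95, 1.10, 1.22, and 1.08 in WT. *SFC1* (SAKL0F14234g), the mitochondrial succinate-fumarate carrier, fell by 2.63 on the log2 scale and *FMP45* (SAKL0E13288g) by 2.75. The 5 other unnamed genes with large falls, SAKL0F13750g, SAKL0H13178g, SAKL0B02266g, SAKL0B10670g, and SAKL0F04334g, had log2 fold changes of −3.14, −3.10, −2.81, −2.70, and −2.58. SAKL0F11220g was well above background on no *aft1*Δ array and was at least 2.00-fold lower. Some of these genes were also low in *sef1*Δ, which has *AFT1*: SAKL0H13178g averaged −5.44, SAKL0F13750g −2.38, *SFC1* −4.60, and *RGT2* −1.02 there.

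By function, most matched genes of ribosome assembly rose. Of 36 matched ribosome biogenesis genes 31 rose and 1 fell, *UTP20* (SAKL0C11330g) at −0.90, and their median log2 fold change was 1.13 against −0.02 over all tested genes. Without the 5 members on chromosome A, 26 of 31 rose and the median was 1.05. In *sef1*Δ against WT, which shares the WT arrays, 18 of the 36 rose and 1 fell (median 0.60), where 10.3% of all tested genes were called higher and 11.2% lower. In *aft1*Δ against *sef1*Δ 19 rose and 1 fell (median 0.73). Of the rises 28 were called under all 8 settings, and at high iron 27 rose and none fell in limma (32 higher and 0 lower at an unadjusted p under 0.05). *RRP1* (SAKL0H18194g), needed for large-subunit rRNA processing, had −0.63, −0.70, −0.72, and −0.41 in *aft1*Δ and −3.52, −2.76, −2.73, and −3.10 in WT, 5.33-fold higher without overlap. *RRP8* (SAKL0H18348g), *UTP4* (SAKL0G08492g), and *NSA2* (SAKL0H24640g) rose by 2.39, 2.28, and 2.06, and *NIP7* (SAKL0A04180g), on chromosome A, by 2.33.

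Genes of the cytosolic ribosome itself moved less and depended on the scaling. Of 73 ribosomal protein genes 20 rose and none fell in limma (median 0.45), where 22.1% of all tested genes were called higher. At an unadjusted p under 0.05, 55 of the 73 were higher and 0 lower, and the methods' t-test after adjustment called 19 and 0. Rises numbered 6 with each array's median as the reference, 14 under quantile normalization, 32 with the percentile of chromosomes B to H, and 36 with the other probe. Only 4 were called under all 8 settings. Of 67 members outside chromosome A 15 rose. *RPL36B* (SAKL0A02772g) had the largest change of the list, 3.32, 3.97, 2.98, and 3.40 in *aft1*Δ and 2.39, 2.11, 1.99, and 1.75 in WT, and lies on chromosome A; with the chromosome sets centred apart it was at 0.37 and not called. *RPL8A* (SAKL0H25960g), off that chromosome, was 1.92-fold higher. For the mitochondrial ribosome 13 of 19 genes rose and 2 fell, with a median of 0.76. *MRPL38* (SAKL0C05258g) rose 3.04-fold (limma adjusted p = 4.61e-11), and *MRPL11* (SAKL0H12474g) fell by 1.04 but read 0.13 with its other probe.

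**Figure D4:**
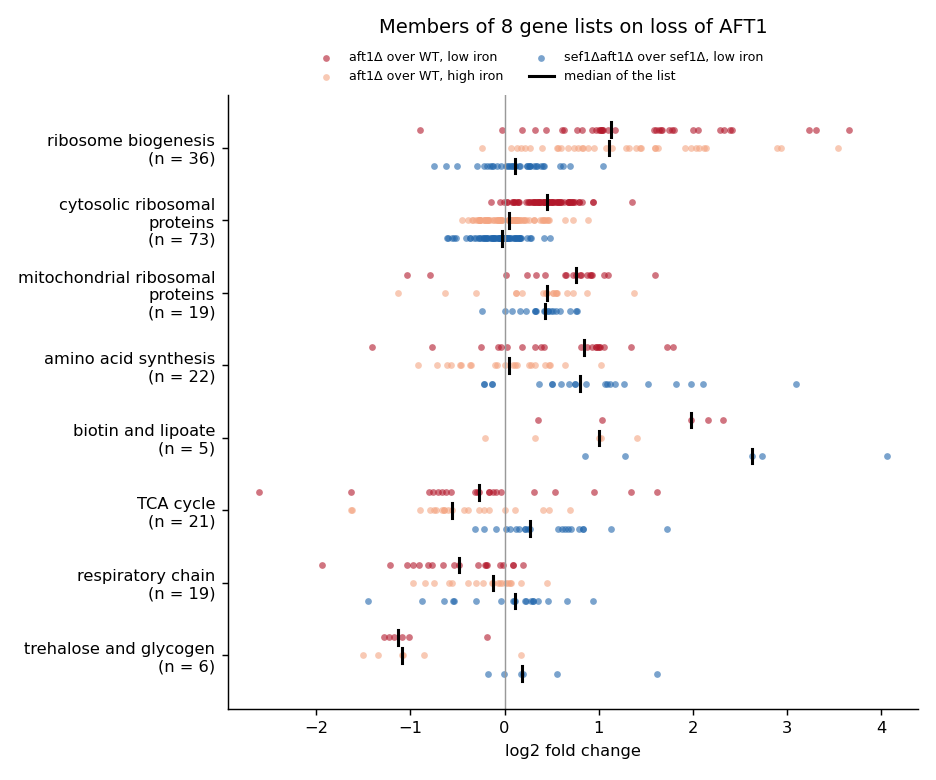
Log2 fold change of every matched member of 8 gene lists for *aft1*Δ against WT at low and at high iron, and *sef1*Δ*aft1*Δ against *sef1*Δ at low iron, with list medians. Ribosome biogenesis genes have medians of 1.13, 1.11, and 0.11, and amino acid synthesis genes 0.85, 0.04, and 0.81.

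Genes for storage carbohydrates fell. Of 6 trehalose and glycogen genes 5 fell, with a median of −1.13, and 5 fell at high iron. *TPS2* (SAKL0H18832g), the trehalose phosphatase, read 1.02, 1.16, 1.20, and 1.15 in *aft1*Δ and 2.41, 2.23, 2.50, and 2.52 in WT, 2.43-fold lower without overlap (limma adjusted p = 2.97e-13). *GSY1* (SAKL0D07678g), glycogen synthase, fell by 1.18, *GLG2* (SAKL0C06358g), which primes glycogen, by 1.09, and *PGM2* (SAKL0E03630g), phosphoglucomutase, by 1.02. *ATH1* (SAKL0F13442g), the acid trehalase, fell by 1.23 but was higher by 0.82 with its other probe. With the other probes 1 gene of the list rose and 3 fell. In *sef1*Δ against WT, 3 of the 6 genes fell (median −0.565). In *aft1*Δ against *sef1*Δ 2 fell and 1 rose (median −0.47).

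In the TCA list 7 of 21 genes fell and 3 rose (median −0.28), and 1 rise and 4 falls held under all 8 settings. There were 4 rises and 5 falls both under quantile normalization and with the percentile of chromosomes B to H, and 2 and 3 with the other probes. In *sef1*Δ, which has *AFT1*, the comparison with WT gave 2 rises and 10 falls in this list (median −0.53), and *aft1*Δ against *sef1*Δ gave 7 rises and 2 falls. *MDH2* (SAKL0C12760g), the cytosolic malate dehydrogenase, had 0.77, 1.12, 0.83, and 0.90 in *aft1*Δ and 2.41, 2.55, 2.64, and 2.54 in WT, 3.10-fold lower (limma adjusted p = 1.91e-12). *IDP3* (SAKL0D08426g), peroxisomal isocitrate dehydrogenase, fell by 2.61. The rises included *CIT3* (SAKL0B02926g) at 1.62, with only 1 of 4 WT arrays well above background and 0.79 and no call with its other probe, and *KGD2* (SAKL0H15422g) at 0.95. Of 19 respiratory chain genes 8 fell and none rose in limma (median −0.48), while 10 were lower and 0 higher at an unadjusted p under 0.05 and 8 and 0 by the methods' t-test. The calls included 2 falls that held under all 8 settings, and the other probes gave 2 rises and 2 falls. In *sef1*Δ against WT 1 respiratory chain gene rose and 6 fell (median −0.49). In *aft1*Δ against *sef1*Δ 2 of them rose and 1 fell (median −0.08). *ATP1* (SAKL0F13420g), an ATP synthase subunit, fell by 0.97 and read −0.21 with its other probe. Among 19 genes of glycolysis and fermentation 3 fell and none rose in limma (median −0.18), with 6 lower and 1 higher at an unadjusted p under 0.05 and 3 and 0 by the methods' t-test. Over all tested genes 18.8% were called lower and 22.1% higher.

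Amino acid synthesis genes were higher in *aft1*Δ than in WT at low iron. Of 22 genes 12 rose and 2 fell, with a median of 0.85, and 11 rises and 1 fall held under all 8 settings. *GLT1* (SAKL0F11638g), the iron-sulfur enzyme glutamate synthase, read 0.91, 0.79, 0.91, and 0.88 in *aft1*Δ and −0.69, −0.85, and −1.01 on the 3 WT arrays with a usable spot, 3.30-fold higher without overlap (limma adjusted p = 1.07e-09). *HIS1* (SAKL0F08426g), of histidine synthesis, rose by 1.79 and *ARO4* (SAKL0A05720g), of aromatic amino acid synthesis and on chromosome A, by 1.34 (0.35 and not called with the chromosome sets centred apart). *BAT1* (SAKL0B12496g), *LEU2* (SAKL0D08690g), and *ILV6* (SAKL0D08492g), of the branched-chain pathway, rose by 1.00, 0.81, and 1.06. The falls were *GDH2* (SAKL0E13024g), the glutamate dehydrogenase of glutamate breakdown, at −1.40, and *TRP1* (SAKL0C10582g) at −0.77.

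Biotin and lipoate genes had the highest median of the 20 lists with members, 1.98, with 4 of 5 rising. *BIO4* and the *BIO3* genes entered this list by names from the study's expression results on other arrays. *BIO4* (SAKL0H11506g), dethiobiotin synthetase, read −1.30, −1.69, −1.40, and −1.92 in *aft1*Δ and −3.91, −3.74, −3.73, and −3.57 in WT, 4.47-fold higher without overlap. The *BIO3* genes SAKL0H11528g and SAKL0H09504g, for the step before it, rose by 2.32 and 1.98. *LIP5* (SAKL0H08382g), lipoate synthase, an iron-sulfur enzyme, rose by 1.04, and *BIO2* (SAKL0C06182g), biotin synthase, another such enzyme, was at 0.36 and not called.

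Of 4 heme synthesis genes 2 rose: *HEM13* (SAKL0D03168g), coproporphyrinogen oxidase, with 4.15, 4.24, 4.02, and 4.03 in *aft1*Δ and 2.91, 3.06, 3.24, and 3.13 in WT, and *HEM1* (SAKL0H12364g), aminolevulinate synthase, with 0.75, 0.86, 0.75, and 1.09 in *aft1*Δ and −0.51, −0.17, −0.08, and −0.19 in WT. Both were above every WT array, by 2.04-fold and 2.14-fold (limma adjusted p = 1.85e-08 and 2.52e-10). In iron-sulfur cluster assembly the calls were close to the shares over all tested genes: 2 of 10 genes rose, *TAH18* (SAKL0B07040g) at 1.00 and *IBA57* (SAKL0F15356g) at 0.70, and 2 fell, the scaffold gene *ISU1* (SAKL0H07238g) at −0.86 and *ISA1* (SAKL0H25454g) at −0.61. *ISU1* read 0.54, 0.57, 0.59, and 0.74 in *aft1*Δ and 1.47, 1.55, 1.27, and 1.57 in WT, without overlap (limma adjusted p = 5.70e-10). Both matched genes of iron sensing fell, *MRS3* (SAKL0C06512g), the mitochondrial iron carrier, by 0.85 and *GRX4* (SAKL0H17710g), a glutaredoxin of the Aft1 sensing pathway in *S. cerevisiae*, by 0.60. Smaller calls here did not hold throughout: *GRX4* was not called without WT replicate 2 (−0.56) or 4 (−0.58) or *aft1*Δ replicate 3 (−0.56), and *ISA1* without WT replicate 1 (−0.51) or *aft1*Δ replicate 1 (−0.56) or 2 (−0.55). With the other probe *GRX4* was at −0.40 and *MRS3* at −0.57, and *IBA57* was at 0.29 under quantile normalization and 0.49 under median scaling, none of them called.

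The other lists held few calls, where 22.1% of all tested genes were called higher and 18.8% lower. In oxidative stress defence *HYR1* (SAKL0A05940g), a peroxidase on chromosome A, and *PRX1* (SAKL0F12320g), the mitochondrial peroxiredoxin, rose by 1.00 and 0.59, and *CTA1* (SAKL0H11198g), peroxisomal catalase, fell by 1.08, of 9 genes. Of 12 heat shock and chaperone genes 3 rose, *HSP30* (SAKL0B06050g) by 1.64, *HSP26* (SAKL0D02794g) by 1.28, and *SIS1* (SAKL0D08778g) by 0.68. In the ribonucleotide reductase list *SML1* (SAKL0G17160g), the inhibitor of the enzyme, fell by 1.16 and *RFX1* (SAKL0D08734g), a repressor of its genes, rose by 0.60, of 5 genes. Of 5 genes of other metals and phosphate *PHO84* (SAKL0D00814g), the phosphate transporter, fell by 1.28 and *CUP2* (SAKL0B03344g), a copper-responsive factor, rose by 1.07. Of 4 sterol genes *HMG1* (SAKL0G17886g) fell by 0.69. The 4 sporulation genes held the rise of *SPO23* and falls of *SPS4* (SAKL0B05962g) at −1.02 and *SPS1* (SAKL0C00946g) at −0.91, which read 0.87 and 0.26 with their other probes. Several of these calls were lost in other settings. *PRX1* was not called without WT replicate 2 (0.56) or 3 (0.52) or *aft1*Δ replicate 2 (0.52), and *RFX1* without WT replicate 1 (0.57) or 3 (0.51) or *aft1*Δ replicate 1 (0.55). *HMG1* was at −0.12 with its other probe, and *HYR1* at 0.01 with the chromosome sets centred apart.

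For mating genes 3 of 6 members of the pheromone response fell, *FUS1* (SAKL0C01606g), *FAR1* (SAKL0C05698g), and *STE5* (SAKL0H17490g), by 1.03, 0.80, and 0.77. None of the 4 marker genes of **a** cells could be matched by name. The single matched marker of α cells, *STE3* (SAKL0C04972g), which in *S. cerevisiae* is specific to that cell type, was well above background on all 8 arrays and fell by 0.66 (limma adjusted p = 3.08e-06), a call lost without *aft1*Δ replicate 2 (−0.58). The mating type in the labels was therefore not checked by markers.

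Most of the differences were also present without iron shortage. At high iron 17.5% of all tested genes were called higher in *aft1*Δ and 13.9% lower, with 296 of 442 (67.0%) and 5 (1.13%) on chromosome A and 632 of 4829 (13.1%) and 725 (15.0%) on chromosomes B to H. Of the 863 rises on chromosomes B to H at low iron 559 (64.8%) were also called higher at high iron, which is 88.4% of the high-iron rises, and of the 965 falls 592 (61.3%) were also called lower, 81.7% of the high-iron falls. These comparisons share no array, but they share both slides. *RLP24*, *MAK16*, *ATC1*, *DAP2*, *TPS2*, and *MDH2*, at 3.54, 2.89, 3.79, 3.39, −1.09, and −1.62 at high iron, are examples.

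A smaller set depended on iron. For the strain by iron interaction, 2.21% of all tested genes were called higher and 3.43% lower, with 103 of 4829 genes (2.13%) and 145 (3.00%) on chromosomes B to H and 13 of 442 (2.94%) and 15 (3.39%) on chromosome A. Here higher means that the *aft1*Δ to WT difference was more positive at low iron. The amino acid list had 10 interactions higher and 1 lower of 22, where 2 genes rose and 3 fell at high iron. Of the 36 ribosome biogenesis genes none was called for the interaction in limma, although 9 were higher and 1 lower at an unadjusted p under 0.05. Of the 6 trehalose and glycogen genes none was called and 1 was lower at an unadjusted p under 0.05.

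Several genes fell with low iron in WT and were not called in *aft1*Δ. For *HEM13* the log2 difference of low from high iron was 0.42 in *aft1*Δ (limma adjusted p = 0.0255, below the fold threshold), against −0.69 in WT (limma adjusted p = 0.000159). Its means at low iron were 4.11 ± 0.10 in *aft1*Δ and 3.08 ± 0.14 in WT, and at high iron 3.69 ± 0.07 and 3.77 ± 0.10 (SD, n = 4 each), with an interaction of 1.11 (limma adjusted p = 4.80e-05). *GLT1* had iron differences of −0.02 in *aft1*Δ and −1.49 in WT and an interaction of 1.47 (limma adjusted p = 0.000309), with usable WT spots on 3 low-iron and 2 high-iron arrays. For *LIP5* the values were 0.03 and −0.68, for *ARO4* 0.09 and −0.78, and for *MAE1* 0.05 and −1.51, with interactions of 0.71, 0.87, and 1.56. Over the amino acid list, low iron called 2 genes higher and 1 lower in *aft1*Δ and 0 higher and 8 lower in WT (at an unadjusted p under 0.05, 5 and 1 in *aft1*Δ and 0 and 17 in WT), where 1.47% and 1.89% of all tested genes were called higher and lower in *aft1*Δ and 2.81% and 1.91% in WT. *TAH18*, whose *S. cerevisiae* product serves cytosolic iron-sulfur cluster assembly, rose with low iron by 0.84 in *aft1*Δ and differed by −0.12 in WT.

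**Figure D5:**
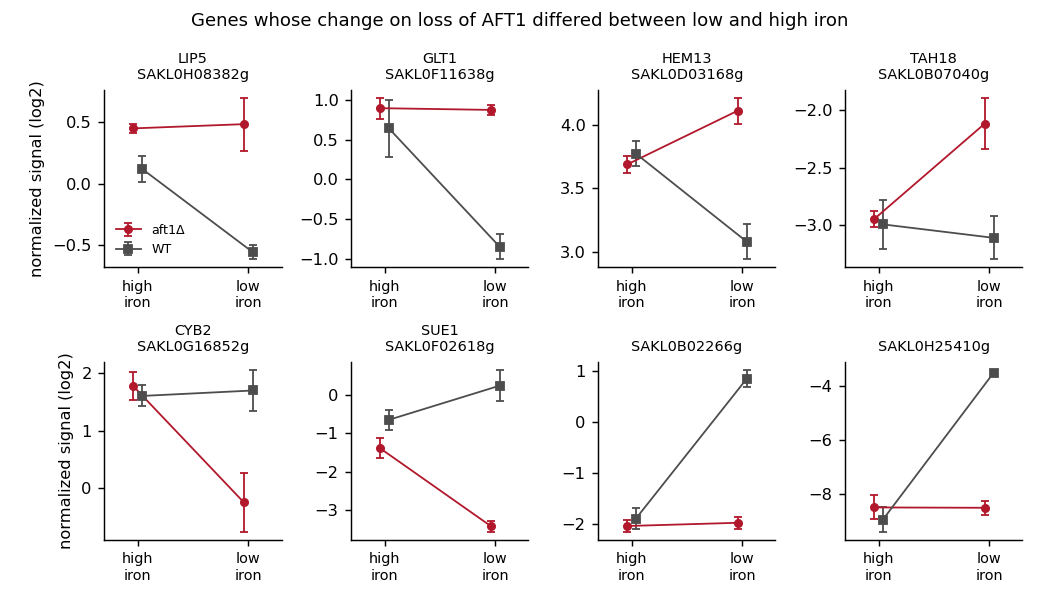
Mean log2 level and SD of 8 genes in *aft1*Δ and WT at high and low iron (n = 4, but 2 at high and 3 at low iron for *GLT1* in WT). *LIP5*, *GLT1*, and *HEM13* drop with low iron in WT only, and *CYB2* (SAKL0G16852g) and *SUE1* drop in *aft1*Δ only.

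Another group fell with low iron in *aft1*Δ only. *CYB2* (SAKL0G16852g), the mitochondrial lactate dehydrogenase, had −0.77, −0.46, −0.19, and 0.43 in *aft1*Δ and 2.10, 1.39, 1.41, and 1.89 in WT at low iron, and 1.77 ± 0.25 and 1.60 ± 0.18 (SD, n = 4 each) at high iron. Its iron difference was −2.02 in *aft1*Δ and 0.09 in WT, and the interaction −2.11 (limma adjusted p = 0.000619). The other gene named *CYB2*, SAKL0F16610g, did not share this pattern. It was lower in *aft1*Δ by 0.65 at low and 0.55 at high iron, and its interaction of −0.10 was not called. *CYC7* (SAKL0D11858g), a cytochrome c, had iron differences of −1.49 in *aft1*Δ and −0.27 in WT, *RGT2* of −2.31 and 0.09, and *SUE1* of −2.02 and 0.88, the last being a rise with low iron in WT. The respiratory chain list held 4 interactions lower and none higher in limma (5 and 0 at an unadjusted p under 0.05).

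A pair of unnamed genes rose with low iron in WT and not in *aft1*Δ. SAKL0H25410g differed between low and high iron by −0.01 in *aft1*Δ and by 5.44 in WT (limma adjusted p = 1.71e-18), where 0 of 4 *aft1*Δ low-iron, 3 of 4 *aft1*Δ high-iron, and 2 of 4 WT high-iron arrays were well above background and the sizes are those of the fit. SAKL0B02266g averaged −1.97 ± 0.12 in *aft1*Δ and 0.84 ± 0.17 in WT at low iron, and −2.04 ± 0.11 and −1.89 ± 0.20 at high iron (SD, n = 4 each), with an interaction of −2.67 (limma adjusted p = 2.97e-14). Neither gene is in the list of 29. Of the 34 genes named for the size of their change at low iron, 15 were called for the interaction, 6 of the rises and 9 of the falls. The low-iron arrays that chose these genes also enter the interaction.

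Fewer genes, and often others, were called on loss of *AFT1* in cells without *SEF1*. Between *sef1*Δ*aft1*Δ and *sef1*Δ at low iron 12.3% of all tested genes were called higher and 7.40% lower, with 599 of 4829 genes (12.4%) and 343 (7.10%) on chromosomes B to H and 77 of 442 (17.4%) called either way on chromosome A, 53 higher and 24 lower, whose median was 0.07. On chromosomes B to H 188 of the 863 rises in *aft1*Δ (21.8%) were also called higher there, 31.4% of the 599, and 31 were called lower. Of the 965 falls 100 (10.4%) were also called lower, 29.2% of the 343, and 152 were called higher. The difference between both comparisons was itself called for 836 genes higher (17.3%) and 1156 lower (23.9%) on chromosomes B to H, among them 541 of the 863 rises and 710 of the 965 falls, which were chosen on arrays that also enter this difference. Over all tested genes 21.2% and 22.5% were called, and on chromosome A 285 of 442 (64.5%) and 25 (5.66%). The WT slide and its separate scan session enter only the comparison with *SEF1*, as does the chromosome A shift of *aft1*Δ. Offsets of slide or session do not cancel in this difference and cannot be told apart from an effect of *SEF1*.

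Ribosome biogenesis and storage genes were among those that differed. In *sef1*Δ*aft1*Δ against *sef1*Δ 4 ribosome biogenesis genes rose and 2 fell, with a median of 0.11, and the difference was called for 27 of 36 higher and 1 lower. *RLP24* averaged 0.05 ± 0.24 in *aft1*Δ and −3.61 ± 0.38 in WT, but −1.32 ± 0.28 in *sef1*Δ*aft1*Δ and −1.13 ± 0.08 in *sef1*Δ (SD, n = 4 each), so that both strains without *SEF1* lay between the other groups. The difference of differences was 3.85 (limma adjusted p = 2.52e-14). For trehalose and glycogen 1 gene rose, *ATH1*, and 5 of 6 differences were called lower. In the TCA list 9 genes rose and none fell in limma (median 0.27), against 11 higher and 1 lower at an unadjusted p under 0.05, and 9 differences were called lower.

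Amino acid, biotin, and lipoate synthesis genes rose in both backgrounds. The amino acid list had 15 of 22 genes higher and none lower in limma in *sef1*Δ*aft1*Δ against *sef1*Δ (median 0.81, 18 and 0 at an unadjusted p under 0.05), and all 5 biotin and lipoate genes were higher (median 2.63). The sizes still differed between the backgrounds. Of the 22 amino acid genes the difference was called higher for 3 and lower for 8 (median −0.44). For 2 of the 5 biotin and lipoate genes it was called lower (median −0.65). *GLT1* averaged 0.83 ± 0.36 in *sef1*Δ*aft1*Δ and −1.15 ± 0.24 in *sef1*Δ (SD, n = 4 each), a change of 1.98. Its difference between the backgrounds, −0.26, was not called. *LEU9* (SAKL0F05170g), of leucine synthesis, rose by 3.09, against 0.88 in the strain with *SEF1*. *HIS1* did not follow, at −0.21 (limma adjusted p = 0.214) against 1.79. Of the heme genes *HEM13* and *HEM3* (SAKL0H12298g) rose by 0.90 and 0.86.

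Of the 34 genes named for their size, the change differed with and without *SEF1* for 29. The exceptions were *SPO23*, *ICY1*, *PTR2*, SAKL0B00286g, and SAKL0B02266g. *PTR2* fell by 3.91 in *sef1*Δ*aft1*Δ against *sef1*Δ, SAKL0B02266g by 2.28, and *SPO23* rose by 4.15. SAKL0B00154g rose more without *SEF1*, to 0.18 ± 1.17 in *sef1*Δ*aft1*Δ (SD, n = 4) against no *sef1*Δ array well above background, at least 222-fold higher. SAKL0B00286g was at least 10.9-fold higher there.

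Set against *sef1*Δ, whose slide was scanned in the same session, 17.2% of all tested genes were higher and 9.15% lower in *aft1*Δ at low iron. On chromosome A 350 of 442 genes (79.2%) were higher and 1 (0.226%) lower, with a median of 0.85, and on chromosomes B to H 561 (11.6%) and 461 (9.55%). This comparison shares the *aft1*Δ arrays with the one against WT. On chromosomes B to H, 397 of the 863 rises against WT (46.0%) were also called higher against *sef1*Δ, and 6 were called lower. Of the 965 falls, 310 (32.1%) were also called lower and 37 were called higher. Those 965 genes had a median of −0.38 against *sef1*Δ and −0.86 against WT.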

How the data were processed

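RNA of *L. kluyveri* was hybridized in 1 color to custom Agilent arrays. Per the labels and methods, the authors labeled oligo-dT primed RNA with 1 dye and extracted spots with Agilent Feature Extraction 10.5.1.1. They deposited, for each array, background-subtracted spot intensities with marks for outlying, saturated, and well-above-background spots, and a table of log2 values scaled to the 75th percentile, in which marked spots are kept.

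From the deposited intensities, log2 of the processed signal minus the array's 75th percentile was computed, leaving out spots marked non-uniform (1 to 12 on the *aft1*Δ low-iron arrays, 91 to 370 on the WT low-iron arrays). One probe per gene was used: that of the authors' best-probe list (the copy used here holds 1999 genes) or of the study's expression results (919), otherwise the brighter of the probes (2388) or the only one (10). Probes of 33 genes cross-hybridize. Ortholog names came from tables of the study for 2287 genes, and 1826 names from tables not made from calls on these arrays filled the lists. Of the names, 149 came from the study's expression results on other arrays. Not every listed symbol was matched: the ribosome biogenesis list held 98 symbols and the biotin and lipoate list 8. No genome was used here. All 31 arrays entered 1 limma 3.58.1 model (R 4.3.3) with a mean per group and no covariate. Strain and iron level came from the sample titles.

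Genes were named by rule: the 12 largest rises and falls on chromosomes B to H, and up to 6 on chromosome A, called with no overlap between arrays and with the other probe called the same way (1179 and 292 genes passed), the 4 members of each list with the largest change, *AFT1*, and *SEF1*. Others were named after their values were seen. One gene under this rule is not reported here. Lists covered ribosome biogenesis, cytosolic and mitochondrial ribosomal proteins, amino acid synthesis, biotin and lipoate, heme, iron-sulfur clusters, iron sensing, TCA cycle, respiratory chain, glycolysis, trehalose and glycogen, oxidative stress, heat shock, sporulation, ribonucleotide reductase, other metals, sterols, mating response, and mating-type markers. Members and lists were chosen with earlier results of these data known.

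To see whether replicate numbers, which are also the slide columns, pair the arrays, deviations from the group mean were correlated between arrays of 1 number: −0.06 to 0.03 between the low-iron arrays of *aft1*Δ and WT, 0.12 to 0.48 between low and high iron in WT, 0.13 to 0.29 in *aft1*Δ, and 0.10 to 0.27 between *sef1*Δ*aft1*Δ and *sef1*Δ. On simulated data with 200 of 5312 genes changed by a log2 of 1 or more, 199 were recovered for the main comparison with 1 false call, 200 for *sef1*Δ*aft1*Δ against *sef1*Δ with 1, 199 for the interaction with 5, and 197 for the difference between backgrounds with 6. The simulated noise was independent between arrays, without slide, session, or scaling offsets, and every change exceeded the fold threshold. These counts therefore check the code and do not give the error rate of the comparisons here. Alternatives covered scaling, normexp background correction with an offset of 50 (run on the median signal), the authors' log2 table, probe choice, marked and dim spots, the model and test, the thresholds, and each array left out. Other software was Python 3.11.15 with numpy 2.4.6, pandas 2.3.3, and matplotlib 3.10.9, and the R package data.table (version 1.17.8).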

Additional observations from a re-analysis of the deposited data

Results flagged for a closer look

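In 10 of the 222 groups of 4 arrays examined for the named genes, 1 array lay far from the others by Dixon's criterion, which chance alone meets in about 1 in 20 groups. In *aft1*Δ at low iron these were replicate 2 for *SPO23* (0.54, others 0.85 to 0.87), SAKL0A05698g (−1.73, others −1.24 to −1.19), *MRPL38* (−1.76, others lower), and *CTA1* (−1.36, others −1.69 to −1.67), and replicate 4 for *MAK16* (−0.43, others −0.89 to −0.86). In WT at low iron they were replicate 1 for *RGT2* (2.67, others 2.01 to 2.10) and *SUE1* (0.84, others −0.01 to 0.12), replicate 3 for SAKL0F02838g (−3.70, others −4.24 to −4.19) and *RNR2* (2.61, others at 2.51), and replicate 4 for *SPS1* (−0.68, others −0.97 to −0.95).

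The change on loss of *AFT1* differed with and without *SEF1*, by limma's test of the difference, for 1121 genes in the positive and 1181 in the negative direction over chromosomes A to H. Offsets of slide and scan session, and anything else particular to the *aft1*Δ strain, do not cancel in this test. Among the genes named for their size, the log2 change with *SEF1* minus that without it was positive for *ESF2* (3.04), SAKL0A03036g (3.76), SAKL0A03630g (3.15), *ENP1* (3.20), *MAE1* (3.17), SAKL0B00946g (2.13), *MAK16* (2.93), *IMA5* SAKL0C00176g (3.87), *AAH1* (1.98), SAKL0F02838g (2.57), *DAP2* SAKL0G11154g (3.09), *RLP24* (3.85), SAKL0H00176g (2.11), and *ATC1* (3.32). It was negative for *YIG1* (−1.25), SAKL0A05698g (−1.42), SAKL0A06842g (−3.84), SAKL0B00154g (−3.47), SAKL0B10670g (−1.73), SAKL0B12606g (−3.25), *RGT2* SAKL0D10450g (−2.59), *FMP45* (−2.14), *SUE1* (−1.81), SAKL0F04334g (−2.71), SAKL0F11220g (−1.52), SAKL0F13750g (−2.87), *SFC1* (−3.42), SAKL0H13178g (−3.18), and SAKL0H25410g (−0.95).

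The *aft1*Δ to WT difference also differed between low and high iron, by the interaction, for 116 genes in the positive and 160 in the negative direction. Among the named genes the low-iron change minus the high-iron change was 1.51 for *SPO23*, 1.56 for *MAE1*, 2.26 for SAKL0B00154g, 1.83 for SAKL0B00286g, 2.06 for SAKL0B12606g, and 0.89 for *AAH1*. It was −1.04 for *ICY1*, −1.40 for *YIG1*, −2.67 for SAKL0B02266g, −1.13 for SAKL0B10670g, −2.40 for *RGT2* SAKL0D10450g, −1.04 for *FMP45*, −2.90 for *SUE1*, −2.05 for SAKL0F11220g, and −5.46 for SAKL0H25410g. For SAKL0B00154g, SAKL0B00286g, SAKL0B12606g, SAKL0F11220g, and SAKL0H25410g 1 or more of the groups in these differences was well above background on 0 or 1 of its 4 arrays, so that their values are those of the fit and not measured sizes. The same holds for the differences with and without *SEF1* given above for any of these genes.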

How the results depend on the processing

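Counts of calls moved with the probe, the scaling, the fold threshold, the centring, and the use of the interaction. Rises on chromosomes B to H (863) numbered 1399 with the other probe, 394 at a fold of at least 2, and 103 as interactions, and falls (965) 563, 342, and 145, with 1456 under median scaling. On chromosome A rises (307) numbered 194 at a fold of at least 2, 13 as interactions, and 75 with the chromosome sets centred apart, and falls (11) 21 under median scaling, 7 with the percentile of chromosomes B to H, 5 with the other probe, 6 with the mean of probes, 4 at a fold of at least 2, and 101 centred apart. The chromosome A median minus that of the others (0.93) was 0.98 under quantile normalization, 0.99 with the other probe, 0.98 with the mean of probes, and 0.038 as the interaction. At high iron rises over both chromosome sets (928) numbered 1598 with the other probe, and falls (730) 1310 under median scaling, 390 with the other probe, and 435 with the mean of probes. With each array left out in turn the ranges were 839 to 876 rises and 911 to 978 falls on chromosomes B to H, 301 to 313 and 10 to 14 on chromosome A, 0.92 to 0.95 for the median, 595 to 707 and 332 to 422 for *sef1*Δ*aft1*Δ against *sef1*Δ (652 and 367), and 1098 to 1165 and 1152 to 1214 for the difference between backgrounds. The replicate block gave 864 and 964 on chromosomes B to H, 307 and 11 on chromosome A, 125 and 172 interactions (141 and 193 blocked within strain), and 653 and 367 without *SEF1*. In the low-iron comparison of *aft1*Δ and WT it changed no call among the 107 named genes. Same-numbered *aft1*Δ and WT low-iron arrays correlated at −0.06 to 0.03, with 1 of 4 arrays closest to its own number. The methods' t-test called 857 and 950 on chromosomes B to H, and 846 and 943 after adjustment. The sign turned as an interaction for *HYR1* (−0.27), *SPS4* (0.50), *COT1* SAKL0B06006g (0.0895), *ERG20* SAKL0C05192g (0.70), *IZH1* SAKL0C09218g (−0.0073), *HEM12* SAKL0D02728g (0.0894), *GSY1* (0.17), *ATH1* (0.27), *ERG6* SAKL0G04972g (0.38), *TRX2* SAKL0G14784g (0.0399), *HMG1* (0.10), SAKL0H00176g (−0.29), *PGI1* (0.44), *MRPL11* (0.10), *ATC1* (−0.0508), *TDH3* SAKL0H24926g (0.23), and *ISA1* (0.41). It turned with the other probe for *SPS4* (0.87), *SPS1* (0.26), *ERG13* SAKL0D00594g (−0.12), *HEM12* (0.51), *ATH1* (0.82), *ERG6* (0.52), and *MRPL11* (0.13). It turned under quantile normalization for *DUN1* SAKL0E05984g (−0.0912), *SEF1* (−0.32), and *ERG6* (0.073), under median scaling for *ERG13* (−0.0573), *SEF1* (−0.19), and *RNR2* (−0.0056), with the percentile of chromosomes B to H (0.0553) and the mean of probes (0.23) for *ERG6*, and centred apart for *RPS30B* (−0.16). Without 1 array *SEF1* ranged from −0.0364 to 0.044 and *ERG6* from −0.173 to 0.0086. The causes were not tested. Centring apart, within-strain blocking, and alternatives for the interaction and high iron were added after seeing the data. The number of arrays, 4 a group, limits the precision, and low probes give bounds only.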

Other observations

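Chromosome C had the lowest median of the 8 chromosomes in *aft1*Δ against WT at low iron, −0.25, with 36.0% of its 581 genes above 0. At high iron the median was −0.21, with 49 genes called higher and 136 lower, and the interaction median was −0.01. Along the chromosome the medians of its quintiles were −0.31, −0.28, −0.41, −0.13, and −0.11. Between *sef1*Δ*aft1*Δ and *sef1*Δ the median was 0.03, with 62 genes higher and 41 lower, and against *sef1*Δ, on a slide scanned in the same session, that of *aft1*Δ was −0.12. In *sef1*Δ against WT it was −0.10, with 39 genes higher and 79 lower. On single arrays the median level of chromosome C genes was −0.74 to −0.62 in the 3 mutant strains over both iron levels and −0.57 to −0.38 in WT, so that the WT slide lay apart from the slides of all mutants, and strain and slide cannot be told apart here.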
